A study of Mus musculus with 8 samples.

Results

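Venous identity was followed through 7 genes, Nr2f2, Nr2f1, Nrp2, Ephb4, Aplnr, Emcn and Stab2, of the 28014 genes counted in single CD31+ cells of the mouse aorta-gonad-mesonephros region (AGM) at E10.5. The genes were taken as a fixed list of names, chosen with earlier results of these data known. They were read in the 7 endothelial clusters of the deposited cell annotation. The clusters were named arterial (aEC), pre-hemogenic (pre-HE), venous (vEC_1, vEC_2, vEC_3 and vEC_4) and in endothelial-to-hematopoietic transition (EHT). These clusters held 11665 of 15168 cells, with 1512 aEC, 248 pre-HE, 488 EHT, 2853 vEC_1, 2706 vEC_2, 2486 vEC_3 and 1372 vEC_4 cells. The question was how venous each vEC cluster was, and how much of the same programme the aEC cluster carried.

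There were 5 WT libraries of C57BL/6 embryos and 3 Mff_Cre libraries, and each library was a pool of cells from 2 to 5 embryos of 1 genotype. Mff_Cre embryos carried Meis1 alleles with loxP sites around 1 exon and the VE-Cre transgene, in which the vascular endothelial cadherin (Cdh5) promoter drives Cre, so recombination was directed to endothelial cells and the blood cells that arise from them. All cells of both genotypes were sorted on CD31, a surface protein of endothelial and many blood cells, and were read as 3′ tags.

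Arterial and venous endothelial cells are told apart by their genes early in development, before the vessel walls mature. Nr2f2 and Nr2f1 encode COUP-TF nuclear receptors, and COUP-TFII, the product of Nr2f2, is known to hold down Notch signalling and with it the arterial programme. Nrp2 is a co-receptor for semaphorins and VEGF-C, Ephb4 is the receptor for the arterial ligand ephrin-B2, and Aplnr is the receptor for apelin. Emcn encodes endomucin, a surface sialomucin rich in veins and capillaries, and Stab2 encodes a hyaluronan scavenger receptor of sinusoidal endothelium. The venous endothelium of this stage also gives rise to the first lymphatic cells, which switch on Prox1.

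All 7 genes had a single entry among the RefSeq genes of GRCm38.p6. Nr2f2 lies on chromosome 7 from 70351946 to 70366746, Nr2f1 on chromosome 13 from 78188971 to 78198873, Nrp2 on chromosome 1 from 62703317 to 62818692 and Ephb4 on chromosome 5 from 137350109 to 137374522. Aplnr lies on chromosome 2 from 85136360 to 85139923, Emcn on chromosome 3 from 137341062 to 137431069 and Stab2 on chromosome 10 from 86841194 to 87008038. The 250 bases before the transcription start are shown for 4 genes, because Nr2f2 and Nrp2 rose most evenly from cluster to cluster while Emcn and Stab2 were the genes, of the 6 searched, whose promoters held AGGTCA, the letters bound by nuclear receptors such as the COUP-TFs. The sequences are those of RefSeq GRCm38.p6, read 5′ to 3′ along the gene, with AGGTCA on either strand (TGACCT when read along the gene) in capitals.
Nr2f2, chr7.0:70366747-70366996, minus strand: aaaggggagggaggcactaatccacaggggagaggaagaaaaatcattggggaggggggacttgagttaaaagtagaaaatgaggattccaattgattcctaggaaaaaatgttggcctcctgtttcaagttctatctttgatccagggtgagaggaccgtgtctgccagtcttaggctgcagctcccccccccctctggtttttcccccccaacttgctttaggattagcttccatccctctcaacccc
Nrp2, chr1.0:62703067-62703316, plus strand: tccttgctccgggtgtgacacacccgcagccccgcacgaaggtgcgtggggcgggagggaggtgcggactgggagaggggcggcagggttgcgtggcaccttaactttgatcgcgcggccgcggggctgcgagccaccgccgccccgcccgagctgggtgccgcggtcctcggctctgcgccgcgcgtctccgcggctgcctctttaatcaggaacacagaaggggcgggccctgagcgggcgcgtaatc
Emcn, chr3.0:137340828-137341077, plus strand: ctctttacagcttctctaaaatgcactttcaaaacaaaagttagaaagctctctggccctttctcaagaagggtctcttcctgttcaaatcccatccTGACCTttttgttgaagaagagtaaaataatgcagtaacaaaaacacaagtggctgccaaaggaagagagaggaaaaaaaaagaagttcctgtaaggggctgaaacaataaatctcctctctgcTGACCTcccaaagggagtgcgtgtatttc
Stab2, chr10.0:87007943-87008192, minus strand: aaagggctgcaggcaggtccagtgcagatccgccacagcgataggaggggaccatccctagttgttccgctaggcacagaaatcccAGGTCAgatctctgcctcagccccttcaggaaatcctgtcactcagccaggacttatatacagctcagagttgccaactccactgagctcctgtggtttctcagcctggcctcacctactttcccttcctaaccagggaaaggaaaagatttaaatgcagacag
Emcn held the letters at 153 and 29 bases before the start on the other strand. Stab2 held them 164 bases before the start, and again 37 bases after it. In windows of 300 bases, 250 before and 50 after the start, AGGTCA was found on either strand in 16.3% of 32851 promoters, GTGGGAA of RBPJ in 6.38%, GTAAACA of forkhead factors in 3.65% and CCGGAAGT of ETS factors in 3.89%. The other match among the members was GTAAACA, 148 bases before the second annotated start of Nr2f1. The promoters of Nr2f2, Ephb4 and Nrp2 held no match to the 4 motifs, and that of Aplnr was not searched here. GC content ran from 41.0% in Emcn to 70.7% in Nrp2, against a median of 52.7% over all promoters, and CpG pairs numbered 2 in Nr2f2 and 37 in Nrp2.

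Library depth was uneven. Total counts ran from 20484881 to 79429129 unique molecular identifiers (UMIs) per library, and the median per cell was 26572 to 28553 in WT 1 to WT 4, 12720.5 in WT 5 and 9611.5 to 14895 in the Mff_Cre libraries. WT 5 was thus as shallow as Mff_Cre, and its cell names start with Mf_, unlike those of the other WT libraries. It was used as WT, as its labels state, and values without it are given below. Of 15135 barcodes, 33 occurred in more than 1 library. Scrublet marked 1 aEC, 4 vEC_1, 1 vEC_2 and 15 EHT cells as doublets and 0 cells of pre-HE, vEC_3 and vEC_4. Blood genes were near background outside EHT, with a summed level of the 7-gene list of 7.32 to 14.9 CPM (counts scaled to a library total of 1e+06) in the aEC, pre-HE and vEC clusters of WT and 510 CPM in EHT.

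Levels below are CPM of the counts summed over the cells of a cluster in 1 library, so that the library is the replicate. Clusters were drawn and named in the study from the same RNA counts, with venous and arterial markers in view, so differences between clusters describe how far the named groups stood apart and are no independent test of the names. Clusters were drawn over both genotypes together, so the genotype comparison is not what chose them. It was still made within clusters that rest on these counts. A change that moved cells from 1 cluster to another would not show in it.

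Nr2f2 formed a staircase through the venous clusters. In WT 1 to WT 5 it stood at 94.7, 106, 72.8, 74.5 and 106 CPM in vEC_1, and at 137, 121, 102, 106 and 132 CPM in vEC_2. The same libraries gave 235, 225, 196, 181 and 239 CPM in vEC_3, and 347, 278, 256, 246 and 304 CPM in vEC_4. In aEC they gave 42.8, 36.7, 32.0, 30.3 and 45.8 CPM. No WT value of aEC reached the lowest value of any vEC cluster, and no value of vEC_1 or vEC_2 reached the lowest of vEC_3. Mean WT levels were 37.5 ± 6.71 CPM in aEC (SD, n = 5) and 90.9 ± 16.5, 119 ± 15.4, 215 ± 25.3 and 286 ± 40.6 CPM in vEC_1 to vEC_4, which is 2.42, 3.18, 5.73 and 7.63 times the aEC level. The steps from aEC to vEC_1, vEC_2, vEC_3 and vEC_4 pointed the same way in 8 of 8 libraries of both genotypes, and each passed an exact sign-flip permutation test (two-sided, adjusted p = 0.0149 each, with p = 0.0078 the smallest that 8 libraries allow). In the Mff_Cre libraries Nr2f2 ran from 36.8 to 56.4 CPM in aEC and from 280 to 332 CPM in vEC_4.

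Nr2f1, the second COUP-TF gene, kept the same order with a coarser grain. Its WT means were 5.60 ± 2.41 CPM in aEC, 7.23 ± 1.52 in vEC_1, 9.36 ± 1.54 in vEC_2, 20.7 ± 3.12 in vEC_3 and 32.3 ± 8.30 in vEC_4 (SD, n = 5). The order from vEC_1 to vEC_4 was kept in 6 of 8 libraries, and vEC_1 and vEC_2 could not be told apart (exact sign-flip permutation, adjusted p = 0.222). aEC lay below every vEC cluster in 7 of 8 libraries, the exception being WT 3 with 9.14 CPM in aEC and 6.23 CPM in vEC_1.

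Nrp2, the semaphorin and VEGF-C co-receptor, followed Nr2f2 step for step. In WT 1 to WT 5 it stood at 77.2, 70.8, 104, 75.9 and 71.0 CPM in aEC, and at 137, 118, 108, 124 and 121 CPM in vEC_1. vEC_2 lay between 143 and 158 CPM, vEC_3 between 222 and 275 CPM, and vEC_4 gave 402, 317, 498, 275 and 341 CPM. The groups of WT values did not overlap between aEC, vEC_1, vEC_2 and vEC_3, although the highest aEC value of 104 CPM in WT 3 came close to the vEC_1 value of 108 CPM in the same library. All 8 libraries kept the full order of aEC and the 4 vEC clusters. The mean WT level in aEC was 79.8 ± 13.9 CPM, and vEC_4 stood at 4.59 times that level.

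Ephb4, the receptor that marks the venous side of the ephrin boundary, was level in vEC_1 and vEC_2 and higher in vEC_3 and vEC_4. vEC_1 and vEC_2 had 35.9 ± 3.09 and 36.6 ± 3.74 CPM in WT (SD, n = 5) and did not differ beyond the spread (exact sign-flip permutation, adjusted p = 0.720). vEC_3 had 55.3 ± 3.38 CPM and vEC_4 76.9 ± 10.6 CPM, and vEC_4 exceeded vEC_3 in 8 of 8 libraries (adjusted p = 0.0149). aEC had 25.2 to 33.8 CPM in WT, below every vEC cluster in 8 of 8 libraries. Unlike the COUP-TF genes and Nrp2, Ephb4 stayed up in pre-HE, at 62.7, 42.0, 25.9, 52.2 and 64.4 CPM in WT 1 to WT 5. The pre-HE level could not be told apart from that of vEC_2 (adjusted p = 0.389) or vEC_3 (adjusted p = 0.149) in the order of levels.

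Emcn was near its venous level in every endothelial cluster outside EHT. Its WT means were 697 ± 48.2 CPM in aEC, 675 ± 72.2 in vEC_1, 753 ± 61.1 in vEC_2, 829 ± 78.4 in vEC_3, 972 ± 112 in vEC_4 and 816 ± 111 in pre-HE (SD, n = 5), against 85.9 ± 34.9 CPM in EHT. The vEC clusters kept the order 1, 2, 3, 4 in 8 of 8 libraries, but the whole range from vEC_1 to vEC_4 was small. aEC and vEC_1 could not be told apart (exact sign-flip permutation, adjusted p = 0.389), with vEC_1 below aEC in 4 of 8 libraries. Emcn therefore separated endothelium from EHT and the ends of the venous range, and did not separate aEC from vEC_1.

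Aplnr, the apelin receptor, did not follow the order. In WT 1 to WT 5 it stood at 251, 254, 178, 133 and 192 CPM in aEC, and at 298, 304, 179, 202 and 240 CPM in vEC_1. In vEC_4 the values were 340, 323, 223, 188 and 264 CPM, so the groups overlapped widely and libraries differed more than clusters. Within a library aEC lay below every vEC cluster in 8 of 8 libraries. Among the vEC clusters none of the neighbours in the order of levels, vEC_3, vEC_1, vEC_2 and vEC_4, could be told apart (exact sign-flip permutation, adjusted p = 0.148 to 0.734). No library had the order from vEC_1 to vEC_4.

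Stab2, the sinusoidal scavenger receptor, was like Ephb4 higher in vEC_3 and vEC_4 than in vEC_1 and vEC_2, but differed from it within these pairs. It stood at 0.315 to 1.76 CPM in WT aEC, where 15 counts were read in all, at 1.94 to 3.85 CPM in vEC_1 and 3.90 to 6.23 CPM in vEC_2. vEC_3 gave 20.3, 11.4, 15.9, 17.7 and 15.0 CPM in WT 1 to WT 5, and vEC_4 gave 25.5, 14.1, 14.4, 15.2 and 15.7 CPM. The WT values of vEC_3 and vEC_4 overlapped with each other and with neither of the lower pair. vEC_3 and vEC_4 could not be told apart (exact sign-flip permutation, adjusted p = 0.319), whereas the step from vEC_2 to vEC_3 was seen in 8 of 8 libraries (adjusted p = 0.0149). The step from vEC_1 to vEC_2 was seen in 7 of 8 libraries (adjusted p = 0.0285 in the same test).

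**Figure D1:**
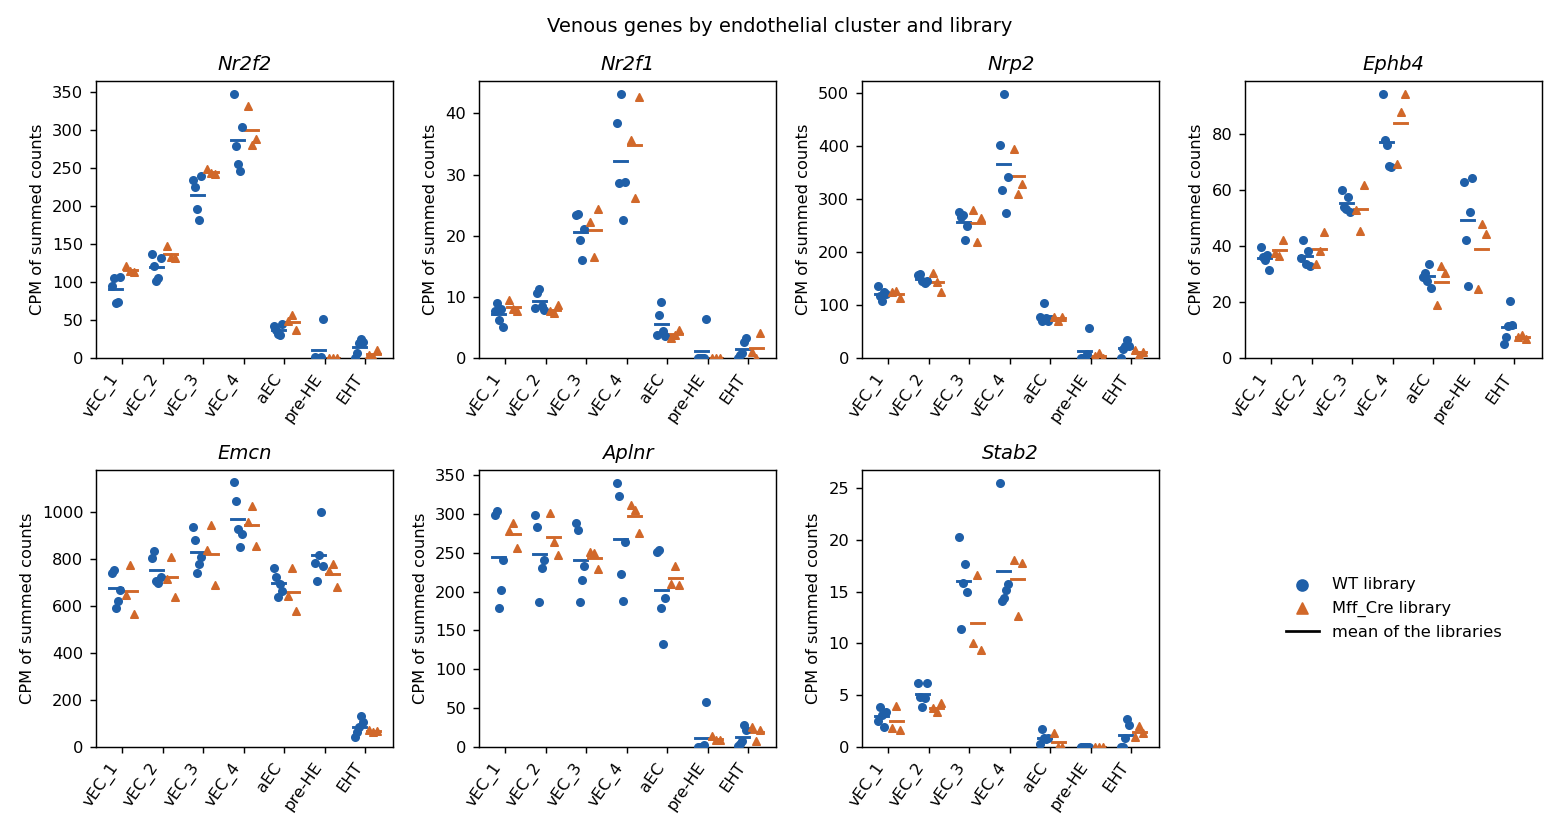
CPM of the summed counts of each venous gene (vertical axis, from 0, a separate scale for each gene) in 7 clusters (horizontal axis), with WT libraries as circles, Mff_Cre libraries as triangles and the mean of each genotype as a line. Nr2f2 and Nrp2 climb from vEC_1 to vEC_4 in all 8 libraries, Aplnr is level across the vEC clusters, and the single high pre-HE circle of Nr2f2, Nr2f1, Nrp2 and Aplnr is WT 5.

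Together the 7 genes gave 42 neighbouring pairs in the orders of levels, and 29 of them differed at an adjusted p under 0.1. In 8 of 8 libraries vEC_3 and vEC_4 both lay above vEC_1 and vEC_2 for every gene but Aplnr, for which this held in 0 of 8. vEC_4 was the highest vEC cluster in 8 of 8 libraries for Nr2f2, Nr2f1, Ephb4, Emcn and Nrp2, in 7 for Aplnr and in 5 for Stab2. Over the 25 WT sums of aEC and the vEC clusters, Nr2f2 had a Pearson r of 0.96 with Stab2, 0.94 with Nrp2, 0.88 with Ephb4, 0.87 with Nr2f1, 0.77 with Emcn and 0.50 with Aplnr, a description only, since the sums of a library share its cells and depth.

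The same differences were fitted across all genes with edgeR (quasi-likelihood test, library as a block, WT libraries), where a gene passed at a Benjamini-Hochberg adjusted p under 0.1 over 11198 genes. Compared to aEC, 6 of the 7 genes were upregulated in vEC_1 and 0 were downregulated, where 23.0% of all tested genes were higher and 22.7% lower. In vEC_2 6 of 7 were upregulated and 0 downregulated, against 30.4% of all genes higher and 30.0% lower. vEC_3 had 7 of 7 upregulated against 33.6% of all genes, with 31.7% lower. vEC_4 had 7 of 7 upregulated against 28.4% of all genes, with 25.4% lower. The median log2 fold change of the 7 genes rose from 0.58 in vEC_1 to 0.83, 1.65 and 2.11 in vEC_2, vEC_3 and vEC_4, while the median of all genes was 0.0024, 0.0038, 0.022 and 0.038.

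Gene by gene, the sizes differed widely. Compared to aEC, Nr2f2 was upregulated by a log2 fold change of 1.31 ± 0.13 in vEC_1 and of 2.89 ± 0.12 in vEC_4 (SE, edgeR adjusted p = 1.02e-11 and 7.57e-26). Stab2 had the largest change, 4.13 ± 0.32 in vEC_4 (edgeR adjusted p = 5.21e-15), from the low aEC counts given above. Nrp2 went from 0.68 ± 0.13 in vEC_1 to 2.11 ± 0.12 in vEC_4, and Nr2f1 from 0.58 ± 0.22 to 2.49 ± 0.20. Ephb4 was upregulated by 0.28 ± 0.10 in vEC_2 and by 1.27 ± 0.10 in vEC_4. Aplnr changed little, by 0.23 ± 0.11 to 0.35 ± 0.12, and Emcn passed in vEC_3 (0.18 ± 0.09, edgeR adjusted p = 0.0867) and in vEC_4 (0.40 ± 0.09, adjusted p = 0.000352) but had values of -0.04 ± 0.09 and 0.09 ± 0.09 in vEC_1 and vEC_2.

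Several of these calls depended on the tool or on 1 library. With DESeq2, 3, 4, 5 and 6 of the 7 genes passed in vEC_1, vEC_2, vEC_3 and vEC_4, and Aplnr passed in none of them (adjusted p = 0.618 to 0.812). DESeq2 also lost Nrp2 in vEC_1 and vEC_2 (adjusted p = 0.341 and 0.116), Nr2f1 in vEC_1 (adjusted p = 0.171) and Emcn in vEC_3 (adjusted p = 0.399). The Emcn call in vEC_3 was lost without WT 1, WT 2, WT 3 or WT 5, the Aplnr call in vEC_3 without WT 4, the Nr2f1 call in vEC_1 without WT 1 or WT 4, and the Ephb4 call in vEC_1 without WT 1 and in vEC_2 without WT 2. Without WT 5 the counts of genes that passed were 6, 6, 6 and 7 in vEC_1 to vEC_4.

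**Figure D2:**
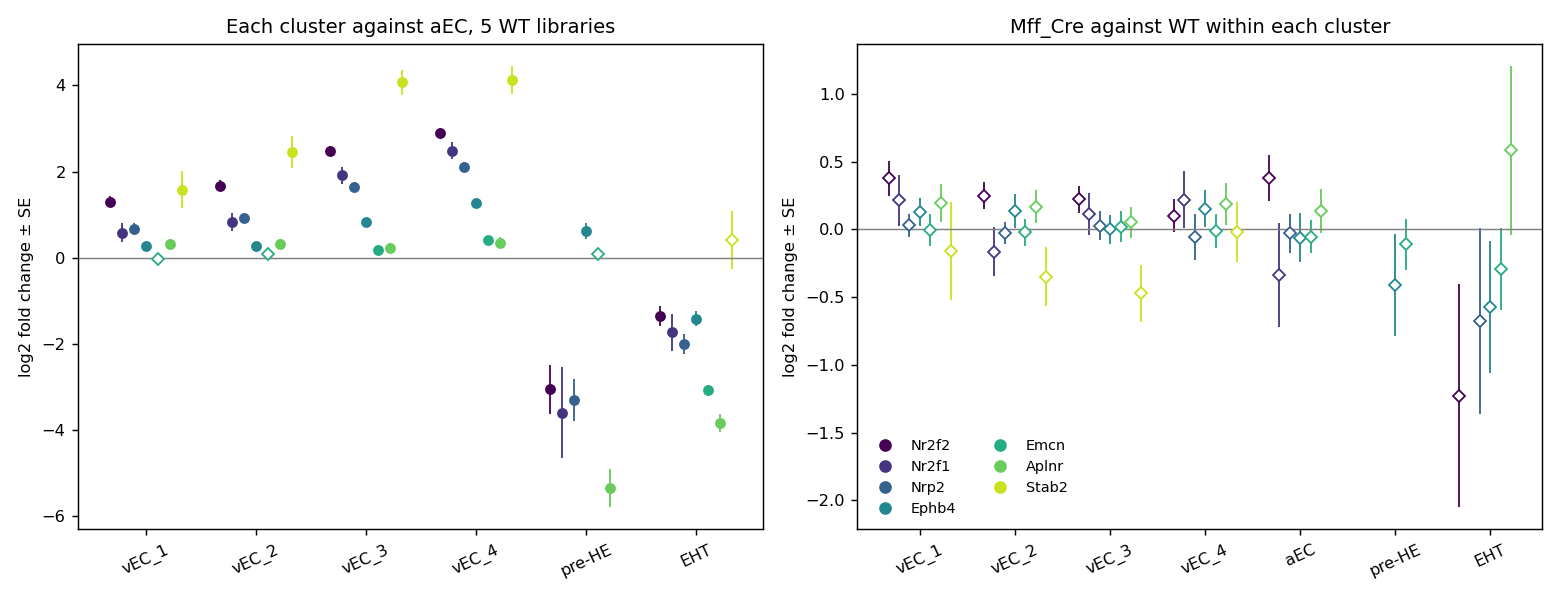
Log2 fold change with its SE (vertical axis) of each venous gene by cluster (horizontal axis), on the left against aEC in the 5 WT libraries and on the right between Mff_Cre and WT within a cluster; filled circles passed at an adjusted p under 0.1 and open diamonds did not. Stab2 in pre-HE, with 0 counts, is not drawn. On the left Nr2f2 climbs from 1.31 in vEC_1 to 2.89 in vEC_4, and on the right every symbol is open.

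Set against the mean of the other 3 vEC clusters, vEC_1 and vEC_2 lay on the low side and vEC_3 and vEC_4 on the high side. In vEC_1 6 of 7 genes were lower and 0 higher, where 23.6% of all genes were lower and 25.5% higher, and Nr2f2 was lower by a log2 fold change of -1.04 ± 0.07 (SE, edgeR adjusted p = 1.15e-16). In vEC_2 5 of 7 were lower and 0 higher, against 18.9% lower and 21.9% higher, with Nr2f2 at -0.55 ± 0.07. vEC_3 had 5 of 7 higher and 0 lower, against 18.6% higher and 18.2% lower, with Nr2f2 at 0.51 ± 0.06. vEC_4 had 6 of 7 higher and 0 lower, against 27.4% higher and 27.8% lower, with Nr2f2 at 1.07 ± 0.07 and Stab2 at 1.43 ± 0.15. Median log2 fold changes of the 7 genes were -0.88, -0.55, 0.41 and 1.03, beside medians of all genes between -0.0037 and 0.013. With DESeq2, 6, 3, 3 and 6 genes passed, and Nr2f2 and Nrp2 were the genes lost in both vEC_2 and vEC_3.

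pre-HE held little of Nr2f2, Nr2f1, Nrp2 and Aplnr, while Emcn and Ephb4 were above their aEC means, Emcn without passing the test. Nr2f2 was at 1.84, 0, 0 and 1.58 CPM in WT 1 to WT 4, at 51.5 CPM in WT 5 and at 0 in all 3 Mff_Cre libraries. Aplnr was at 0, 0, 0, 2.37 and 57.9 CPM in the WT libraries, Nrp2 at 0, 0, 0, 8.70 and 57.9 CPM, and Nr2f1 at 0 in every library but WT 5 with 6.44 CPM. WT 5 held 8 of the 11 Nr2f2 UMIs of WT pre-HE cells, 9 of 12 of Aplnr, 9 of 20 of Nrp2 and the 1 of Nr2f1. The WT 5 signal came from 2 of its 16 pre-HE cells, with 5 and 3 Nr2f2 UMIs among 19946 and 16389 UMIs, which were the largest UMI totals of the 16. Both cells also had UMIs of Gja5, the arterial connexin 40 gene, and neither was marked as a doublet.

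Compared to aEC, 4 of the 7 genes were downregulated in pre-HE and 1 was upregulated, where 24.0% of all genes were lower and 19.8% higher. Aplnr had a log2 fold change of -5.34 ± 0.44, Nrp2 of -3.30 ± 0.49, Nr2f2 of -3.05 ± 0.57 and Nr2f1 of -3.59 ± 1.06 (SE, edgeR adjusted p = 2.01e-14, 2.32e-07, 1.67e-05 and 0.00549). Without WT 5 the same 4 genes were at -7.23, -4.09, -4.77 and -7.70 on the log2 scale, and all 4 passed, the last with 0 counts in pre-HE, so that its size is no bound. Ephb4 was upregulated by 0.62 ± 0.19 (edgeR adjusted p = 0.00745), a call that was lost in the Mff_Cre libraries (0.26, adjusted p = 0.705) and with Bonferroni adjustment (adjusted p = 1), while Emcn did not pass at 0.09 ± 0.12 (adjusted p = 0.580). Stab2 had 0 counts in the 2331096 UMIs of WT pre-HE cells, which allows up to 1.29 CPM, above its aEC level of 0.901 CPM, so no fold change is given for it. The median of the other 6 genes was -3.18, beside -0.05 for all genes.

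EHT cells, which are on the way to blood, were below aEC for every venous gene but Stab2, which was low in both. Compared to aEC, 6 of the 7 genes were downregulated and 0 upregulated, where 34.5% of all genes were lower and 37.7% higher. Aplnr had a log2 fold change of -3.83 ± 0.21 and Emcn of -3.08 ± 0.12 (SE, edgeR adjusted p = 2.05e-21 and 6.28e-27). Nr2f2 had a log2 fold change of -1.35 ± 0.24. It stood at 0.482, 7.52, 20.1, 25.4 and 21.7 CPM in WT 1 to WT 5, a spread larger than in any vEC cluster relative to its mean. The 142 Nr2f2 UMIs of WT EHT came from 30 of 326 cells, and 1 cell held 22 of them. Stab2 did not pass, at 0.41 ± 0.66 (adjusted p = 0.594), with 12 counts (1.29 CPM) in WT EHT cells and 15 counts (0.901 CPM) in WT aEC cells. The median of the 7 genes was -1.73, beside 0.05 for all genes.

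The arterial genes show what the aEC cluster is on the other side of the balance. The arterial list of the study held 9 genes (Efnb2, Vegfc, Epas1, Nrp1, Gja5, Jag1, Dll4, Notch4 and Notch1). Of these, 9 were lower in vEC_1, vEC_2 and vEC_3 than in aEC and 6 in vEC_4, and 0 were higher. Among all genes 22.7, 30.0, 31.7 and 25.4% were lower. The medians of the list were -0.94, -1.39, -1.71 and -1.11 on the log2 scale. The study scored these cells with that list, so it is no independent evidence of the direction. Dll4, a Notch ligand of arterial and tip cells, fell from 46.5 CPM in WT aEC to 15.4, 6.85, 1.61 and 2.52 CPM in vEC_1 to vEC_4. Hey1, a Notch target gene, went from 67.5 CPM in aEC to 11.6, 2.63, 1.25 and 5.44 CPM. Yet all 9 genes were higher in pre-HE than in aEC, where 19.8% of all genes were higher. The levels were 500.5 against 2.17 CPM for Gja5, 317 against 53.3 CPM for Efnb2 and 136 against 46.5 CPM for Dll4. A further 8 arterial genes (Gja4, Hey1, Hey2, Sox17, Cxcr4, Unc5b, Bmx and Acvrl1) were likewise higher in pre-HE than in aEC in 8 of 8 cases. In each vEC cluster 7 of these 8 genes were lower than in aEC, and in vEC_4 1 was higher. Summed over each of the 2 lists, arterial markers in aEC thus lay between pre-HE and the vEC clusters. Gja5 was near 0 in aEC.

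aEC had the highest mean WT level of the 7 clusters for Apln, the ligand of the apelin receptor, at 50.9 CPM against 20.3 to 27.9 CPM in the vEC clusters and 0.633 CPM in pre-HE. The capillary and tip cell genes Esm1 (80.0 CPM), Kcne3 (85.9 CPM), Rgcc (48.3 CPM) and Angpt2 (10.1 CPM) were also highest there, whereas Cd34 and Plvap were highest in pre-HE (1080 and 1382 CPM against 797 and 451 CPM in aEC). Of these 6 capillary and tip genes, 5 were lower than in aEC and 0 higher in vEC_1, vEC_2 and vEC_3, and 5 lower and 1 higher in vEC_4, where 22.7, 30.0, 31.7 and 25.4% of all genes were lower. In pre-HE 4 were lower and 2 higher, beside 24.0 and 19.8% of all genes, and the list summed to 2492 CPM there against 1473 CPM in aEC. The part of these genes in the levels of Nr2f2, Aplnr and Emcn in aEC was not tested.

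Ligands and partners of the 7 genes moved in several directions. Of 10 such genes (Apln, Apela, Efnb2, Sema3c, Sema3f, Plxna1, Vegfc, Vegfa, Flt4 and Kdr), 8 could be tested. Compared to aEC, 5 were lower in each of vEC_1, vEC_2 and vEC_3, where 22.7, 30.0 and 31.7% of all genes were lower. In vEC_4 2 were lower, while 0, 1, 2 and 1 were higher in vEC_1 to vEC_4. The 2 lower in vEC_4 are a share like that of all genes (25.4%), and the counts of higher genes are not above those of all genes (23.0, 30.4, 33.6 and 28.4%). Efnb2, which encodes the ligand of the Ephb4 receptor, fell from aEC through vEC_1 and vEC_2 to vEC_3, at 53.3, 35.4, 30.8 and 23.4 CPM in WT. Ephb4 rose from aEC to vEC_1 and from vEC_2 to vEC_3, but was level between vEC_1 and vEC_2. In pre-HE both exceeded their aEC levels, with 317 CPM for Efnb2 and 49.4 CPM for Ephb4. Flt4, the VEGF-C receptor that pairs with Nrp2, was upregulated in vEC_2 (0.31 ± 0.10) and vEC_3 (0.34 ± 0.10; SE, edgeR adjusted p = 0.00501 and 0.00202), with 57.7 and 60.1 CPM against 44.2 CPM in aEC.

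The 2 clusters with most venous RNA also carried lymphatic and sinusoidal genes. Prox1, the master factor of lymphatic fate, was at 62.8 CPM in vEC_3 and 102 CPM in vEC_4 of WT, against 2.02, 2.98 and 5.38 CPM in aEC, vEC_1 and vEC_2. Lyve1, a hyaluronan receptor of lymphatic and sinusoidal endothelium, was at 15.3 and 86.5 CPM in vEC_3 and vEC_4 against 1.23 to 1.76 CPM in vEC_1 and vEC_2. Maf reached 17.7 and 35.6 CPM and Stab1 111 and 166 CPM. Of 8 listed genes 5 could be tested, and all 5 were higher than in aEC in both vEC_3 and vEC_4, against 33.6 and 28.4% of all genes. In vEC_1 and vEC_2 3 of the 5 were higher, against 23.0 and 30.4%, and in pre-HE 2, against 19.8%. The summed level of the 8 genes was 191 to 247 CPM in vEC_3 and 337 to 484 CPM in vEC_4 over WT libraries, against 63.1 to 101 CPM in aEC, vEC_1 and vEC_2 and 131 to 156 CPM in pre-HE. Fcgr2b and Clec4g, markers of liver sinusoids, stayed at 0 to 0.272 CPM in the 4 vEC clusters.

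Proliferation separated the venous clusters in another way. Of 15 cell cycle genes, 15, 14 and 13 were higher than in aEC in vEC_1, vEC_2 and vEC_3, and 6 in vEC_4, where 23.0, 30.4, 33.6 and 28.4% of all genes were higher. Against the other vEC clusters 12 of 15 were lower in vEC_4 and 1 higher, beside 27.8 and 27.4% of all genes. Top2a stood at 295, 480, 501 and 197 CPM in vEC_1 to vEC_4 and at 141 CPM in aEC, so vEC_4, with most Nr2f2, had the least Top2a of the vEC clusters. The part of the cell cycle in the venous order was not tested.

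Lists of other cell types were low. Mesenchymal genes summed to 2.17 CPM in WT aEC and to 4.05, 3.52, 10.2 and 23.8 CPM in vEC_1 to vEC_4, mostly from Twist1 (18.4 CPM in vEC_4), and to 38.5 CPM in pre-HE. Genes of mesonephric and coelomic epithelium summed to at most 3.77 CPM in the aEC, pre-HE and vEC clusters. Erythroid globins summed to 9.64 to 240 CPM per WT library over the vEC clusters with no such order of means, at 77.4, 55.6, 56.3 and 93.0 CPM in vEC_1 to vEC_4. The pan-endothelial gene Cdh5 was at 333 to 427 CPM in the vEC clusters and 350 CPM in aEC. The 8 listed pan-endothelial genes summed to 2728 CPM in WT aEC and to 2184, 1948, 1931 and 2245 CPM in vEC_1 to vEC_4. Of these genes 6, 5, 5 and 3 were lower than in aEC, and 1, 1, 1 and 2 were higher. Among all genes 22.7, 30.0, 31.7 and 25.4% were lower and 23.0, 30.4, 33.6 and 28.4% higher. The mesenchymal sum was highest among the vEC clusters in vEC_4, and its part in the venous order was not tested.

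Summed counts could come from a few bright cells or from many. To compare shares, 5000 UMIs were drawn at random from every cell, which left out 2 to 7 WT cells in each of aEC and the vEC clusters. A Nr2f2 UMI was then found in 13.3 ± 5.22% of WT aEC cells (SD, n = 5) and in 35.5 ± 4.53, 42.1 ± 3.86, 62.2 ± 5.14 and 71.5 ± 5.81% of vEC_1 to vEC_4 cells. Cells that should lack the gene gave 1.51 ± 1.08% in Myeloid and 4.70 ± 4.77% in Megakaryocytes, with median depths of 39173 and 24314.5 UMIs before thinning against 18343 in aEC. The Megakaryocytes share was 12.7% in WT 5 and 0 to 4.17% in the other WT libraries. The aEC share was above the Megakaryocytes and Myeloid shares in each of the 8 libraries, with 20.6% in WT 5, although WT 3 had only 5 Megakaryocytes, while the pre-HE share of 2.73% and the EHT share of 2.96% were not. Without thinning the aEC share was 35.6%, and with at least 2 UMIs required it was 2.26%.

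The other members gave a like picture. Nrp2 was found in 29.7 ± 5.62% of aEC cells and in 42.1, 52.2, 64.2 and 76.8% of vEC_1 to vEC_4 cells, beside 4.06% of Myeloid cells. Ephb4 was found in 13.1% of aEC and 32.4% of vEC_4 cells, and in 24.2 ± 14.6% of pre-HE cells. Emcn was in 93.1 to 96.6% of the cells of aEC, pre-HE and every vEC cluster, and Aplnr in 60.0% of aEC cells and 63.9 to 70.3% of vEC cells. Nr2f1 reached 14.8 ± 4.72% in vEC_4 beside 1.92% in aEC and 2.91% in Megakaryocytes, so its aEC share was within the background. Stab2 was in 9.13 ± 2.48% of vEC_3 cells and 5.23 ± 1.80% of vEC_4 cells.

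Counted per cell, WT aEC cells had UMIs of 2.12 ± 0.12 of the 7 venous genes and 2.02 ± 0.25 of the 9 arterial genes (SD, n = 5). vEC_1 to vEC_4 cells had 2.65, 2.84, 3.26 and 3.66 venous genes and 1.39, 1.16, 0.987 and 1.14 arterial genes. pre-HE cells had 1.26 ± 0.23 venous and 5.60 ± 0.51 arterial genes. At least 3 venous genes were seen in 32.9 ± 4.87% of aEC cells, in 53.3, 62.6, 74.9 and 86.5% of vEC_1 to vEC_4 cells and in 3.19% of pre-HE cells. Nr2f2 and any of the 9 arterial genes were seen in the same cell in 11.3 ± 5.35% of aEC cells and 49.8 ± 8.22% of vEC_4 cells. Cells with Nr2f2 at all, which limit these shares, were 13.3% of aEC and 71.5% of vEC_4 cells. Nr2f2 together with Gja5 was seen in 0% of thinned aEC, vEC_1, vEC_2 and vEC_3 cells and in 0.309% of vEC_4 cells. Gja5 itself was seen in 0.793% of aEC, 0 to 0.037% of vEC_1 to vEC_3, 1.06% of vEC_4 and 88.8% of pre-HE cells. With so few Gja5 cells in aEC, the 0% there says little on whether the genes exclude each other.

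**Figure D3:**
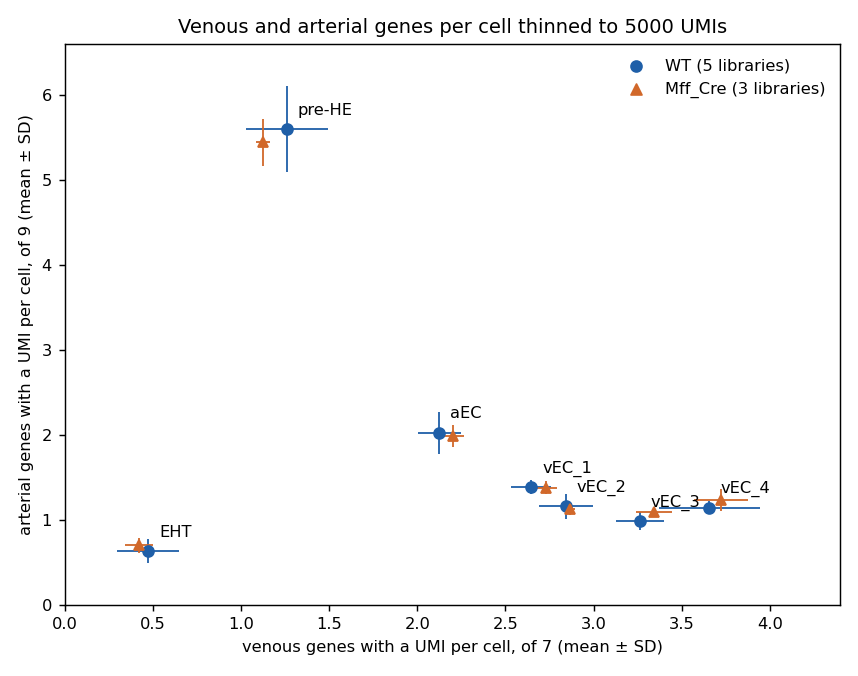
Mean number of the 7 venous genes (horizontal axis) and of the 9 arterial genes (vertical axis) with a UMI per cell thinned to 5000 UMIs, for each cluster, with WT as circles and Mff_Cre as triangles; bars are SD over libraries. The vEC clusters run from 2.65 to 3.66 venous genes at about 1 arterial gene, aEC sits at 2.12 and 2.02, and pre-HE stands alone at 5.60 arterial genes.

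Within aEC, cells with a Nr2f2 UMI were compared with those without, in the 4 WT libraries that had at least 10 cells on each side (125 and 711 cells). Nrp2 was found in 38.6% of the first and 25.9% of the second, and Aplnr in 67.7 and 56.0%, each higher in 4 of 4 libraries. The arterial genes Nrp1, Notch1 and Notch4 went the other way, at 55.5 against 66.8%, 21.5 against 30.6% and 7.18 against 17.4%, each higher in 0 of 4 libraries. Of the other arterial genes, Efnb2, Dll4, Epas1 and Vegfc were higher in 1 of 4 libraries, Jag1 in 2 and Gja5 in 0. Of the other venous genes, Nr2f1 and Ephb4 were higher in 4 of 4 libraries, Emcn in 3 and Stab2 in 0. In the same split of vEC_1 (542 and 1051 cells) Nrp2 was at 49.8 and 37.9%, higher in 5 of 5 libraries. Aplnr was also higher in 5, Nr2f1 and Stab2 in 4, and Ephb4 and Emcn in 3. Of the arterial genes, Jag1 was higher in 4 of 5, Nrp1 in 3 and Epas1 and Notch1 in 2. Notch4, Efnb2 and Vegfc were higher in 1, and Dll4 and Gja5 in 0. In vEC_4 (572 and 236 cells) Nrp2 was higher in 4 of 5 libraries and Jag1 in 5 of 5, at 8.68 and 3.89%. Aplnr and Ephb4 were higher in 3 of 5, and Nr2f1, Emcn and Stab2 in 2. Of the other arterial genes, Notch1 was higher in 4 of 5, Epas1 in 3 and Dll4, Nrp1 and Efnb2 in 2. Notch4, Gja5 and Vegfc were higher in 1. These shares describe the cells of 1 cluster and were not tested, and cells of a library are not replicates.

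The venous clusters were likewise opened along Prox1, a split chosen after seeing its levels. In vEC_3, 221 WT cells had a Prox1 UMI and 1203 did not. Nr2f2 was found in 73.9 ± 4.88% of the first and 59.8 ± 5.59% of the second (SD, n = 5), and Nrp2 in 81.0 and 60.8%, both higher in 5 of 5 libraries. Stab2, Aplnr and Emcn were higher in 0 of 5 libraries, with 2.33 against 10.5%, 52.2 against 66.1% and 83.3 against 94.9%. In vEC_4, with 177 and 631 cells, Nrp2 was found in 88.1 and 73.7% and Lyve1 in 35.7 and 22.5%, higher in 5 of 5 libraries, and Stab2 in 1.39 and 6.48%, higher in 0 of 5. So Nr2f2 and Nrp2 went with Prox1 among the cells of vEC_3, and Stab2 did not, although Stab2 and Prox1 were high in the same 2 clusters.

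**Figure D4:**
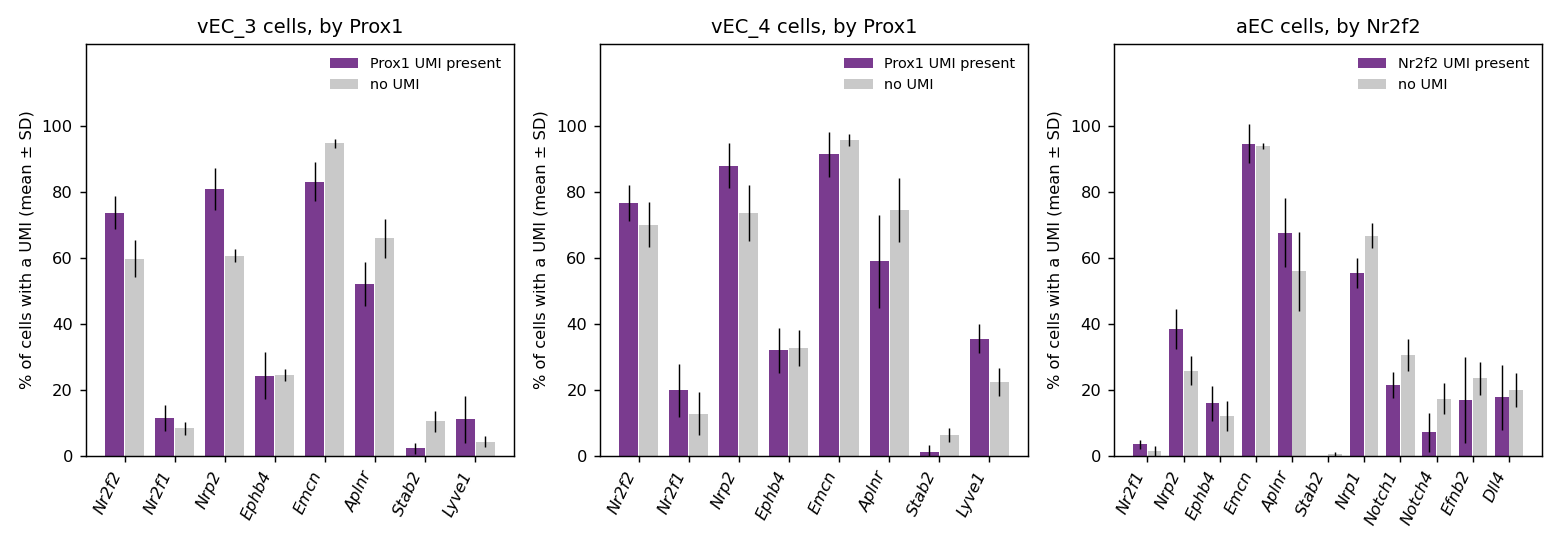
Percent of WT cells thinned to 5000 UMIs with a UMI of each gene (vertical axis, mean with SD over libraries) in vEC_3 and vEC_4 cells with and without a Prox1 UMI and in aEC cells with and without a Nr2f2 UMI. In vEC_3 Nrp2 is at 81.0% with Prox1 and 60.8% without, while Stab2 is at 2.33% and 10.5%.

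Genes with the pattern most like that of Nr2f2 were sought by Pearson correlation of log2(CPM + 1) over the 35 WT sums of the 7 clusters, among 6298 genes with a mean of at least 4. The 6 nearest were Lck (r = 0.90), Homer3 (0.90), Ndufa8 (0.89), Gpr183 (0.88), Pde2a (0.88) and Cfdp1 (0.87). Lck, a kinase best known from T cells, stood at 10.4 CPM in aEC and at 26.6, 34.4, 40.0 and 42.7 CPM in vEC_1 to vEC_4. Gpr183 and Pde2a did not climb so, with 71.8 and 71.6 CPM in aEC and 61.7 and 55.6 CPM in vEC_3, but in pre-HE they had 2.73 and 2.45 CPM. The 6 nearest to the mean z score of the 7 genes were Carhsp1 (0.92), Cfdp1 (0.92), Homer3 (0.91), Mtss1 (0.91), Trib1 (0.90) and Hdgfrp3 (0.90). The sums share libraries and depth, so these values rank genes and test nothing.

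Outside the list, the genes with the largest differences among the vEC clusters were named by a rule of size. Against the other vEC clusters, Foxq1, Vwa1 and Car2 had the largest rises in vEC_1 and in vEC_2. The contrast is with the mean of the other clusters on the log scale, and the CPM of these genes in vEC_2 lay below those in vEC_1 and above those in vEC_3 and vEC_4. Foxq1, a forkhead factor, was at 159 CPM in WT aEC and at 40.9, 9.42, 0.597 and 1.39 CPM in vEC_1 to vEC_4. In vEC_3 Nts and Dab2 were among the largest rises, and Dab2, which encodes an endocytic adaptor, stood at 27.3, 42.6, 129 and 173 CPM in vEC_1 to vEC_4. In vEC_4 they were those of Edn1, Vwf and Cd59a. Vwf, which encodes von Willebrand factor, was at 74.1 CPM in vEC_4 and 3.78 to 15.8 CPM in the other vEC clusters, and at 669 CPM in pre-HE. Among the largest falls were Hoxa5, Dab2 and Edn1 in vEC_1, Edn1, Vwf and Gja4 in vEC_2, Foxq1, Vwa1 and Gja4 in vEC_3 and Car2, Vwa1 and Bok in vEC_4.

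The last question was whether loss of Meis1 in the endothelium changed the venous genes. Meis1 itself was not called lower in Mff_Cre in any cluster where it was tested. In aEC and pre-HE it did not pass the filter on low counts and was not tested. Its mean level was 1.18 CPM in WT and 1.79 CPM in Mff_Cre aEC, and 31.8 and 30.8 CPM in pre-HE. In EHT it stood at 80.0 ± 6.94 CPM in WT (SD, n = 5) and 62.1 ± 7.90 CPM in Mff_Cre (n = 3), a log2 fold change of -0.34 ± 0.14 (SE, edgeR adjusted p = 0.460; exact permutation of the CPM, p = 0.0357). Because 3′ tags do not read the exon that is removed, this level does not check the deletion. Meis1 also rose with the venous order in WT, at 1.18 CPM in aEC and 2.66, 3.02, 7.33 and 9.50 CPM in vEC_1 to vEC_4, against 31.8 CPM in pre-HE.

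In the genotype fits 41 tests of the 7 genes could be made over the 7 clusters, and 0 passed at an adjusted p under 0.1 with edgeR and 0 with DESeq2. At an unadjusted p under 0.05 there were 5, of which 4 were Nr2f2 (aEC, vEC_1, vEC_2 and vEC_3) and 1 was Stab2 in vEC_3. Over all genes the fits called 0% in aEC, 0.489% in pre-HE, 0.127% in EHT, 0% in vEC_1, 0.0187% in vEC_2, 0% in vEC_3 and 0% in vEC_4. There were 9540, 10490, 10744 and 9691 genes tested in aEC, vEC_1, vEC_3 and vEC_4. Of these 1000, 1473, 1485 and 895 had an unadjusted p under 0.05, shares near that of the venous genes (5 of 41). With DESeq2 the calls numbered 11, 86, 87 and 23.

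Nr2f2 had the largest of these values among the vEC clusters in vEC_1. It stood at 121, 114 and 113 CPM in Mff_Cre and at 94.7, 106, 72.8, 74.5 and 106 CPM in WT, so the genotypes did not overlap. In vEC_1 every Mff_Cre value also exceeded every WT value for 2.94% of all tested genes. The log2 fold change was 0.38 ± 0.13 (SE, edgeR adjusted p = 0.253; exact permutation of the CPM, p = 0.0714, where 0.0179 is the smallest that 5 against 3 libraries allow). In vEC_3, where the genotypes did not overlap either, it was 0.22 ± 0.10 (edgeR adjusted p = 0.339), and 2.35% of all genes had no overlap in that direction. Values in aEC, vEC_2 and vEC_4 were 0.38 ± 0.17, 0.25 ± 0.10 and 0.10 ± 0.12 (edgeR adjusted p = 0.452, 0.290 and 0.820).

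Depth differed with the genotype, so the Nr2f2 difference was recomputed in several ways. In cells thinned to 5000 UMIs it was 0.33, 0.24, 0.20 and 0.03 in vEC_1 to vEC_4 and 0.55 in aEC on the log2 scale, none of which passed. With a term for depth it was 0.13, 0.08, 0.06 and 0.01 in vEC_1 to vEC_4 and -0.09 in aEC, and none passed. Against WT 5 alone, a single pool of like depth whose cell names start with Mf_, Nr2f2 in Mff_Cre differed by 0.10, 0.05, 0.03 and -0.02 in vEC_1 to vEC_4 and by 0.04 in aEC on the log2 scale. With WT 5 left out, Nr2f2 passed in vEC_1 (0.46, edgeR adjusted p = 0.0395) and vEC_2 (0.30, adjusted p = 0.0923). In vEC_1 the adjusted p ran from 0.0304 to 1 over the alternatives. Meis1 loss and library depth cannot be told apart in this design, and the value against WT 5 rests on 1 library.

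Stab2 in vEC_3 was at 10.1, 16.6 and 9.33 CPM in Mff_Cre and at 20.3, 11.4, 15.9, 17.7 and 15.0 CPM in WT, with overlapping groups and a log2 fold change of -0.47 ± 0.21 (SE, edgeR adjusted p = 0.334). Apart from Nr2f2 and this value, the log2 fold changes of the venous genes in the vEC clusters lay between -0.35 and 0.22. The genotype effect in pooled vEC minus that in aEC passed for 0 of the 7 genes, none of which had an unadjusted p under 0.05, and for 0% of all genes, of which 603 had one (edgeR). For Nr2f2 this difference was -0.20 ± 0.13 on the log2 scale (SE, adjusted p = 0.986).

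Of 49 comparisons of the shares of cells with a UMI, 1 reached an unadjusted p under 0.05. It was Emcn in aEC, found in 93.6 ± 1.08% of WT and 95.8 ± 0.83% of Mff_Cre cells (SD, n = 5 and 3, exact permutation, p = 0.0357, not adjusted). Nr2f2 in vEC_1 was found in 35.5 ± 4.53% of WT and 41.2 ± 1.80% of Mff_Cre cells (exact permutation, p = 0.0536). The make-up of the endothelium did not differ beyond the spread either. vEC_4 made up 12.4 ± 0.92% of the cells of aEC, pre-HE and the vEC clusters in WT and 11.7 ± 1.64% in Mff_Cre, and vEC_1 24.5 ± 1.37 and 26.5 ± 4.94% (SD, n = 5 and 3, exact permutation, p = 0.429 and 0.446). pre-HE made up 2.45 ± 1.23% in WT and 1.62 ± 0.56% in Mff_Cre (exact permutation, p = 0.339), and the p of aEC, vEC_2 and vEC_3 were 0.982, 0.929 and 0.929.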

How the data were processed

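Single CD31+ cells of E10.5 AGM were measured as 3′ tags in 5 WT and 3 Mff_Cre libraries. Per the labels and the study's methods, reads were aligned and counted with Cell Ranger 3.0.2 on mm10, cells with under 2000 genes or over 10% mitochondrial reads were removed, and clusters were named from the RNA. The authors deposited raw UMI counts per gene and cell and a cell annotation, from which library and cluster were taken. Other cell types of the annotation served as background only.

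The venous genes and the gene lists were chosen with earlier results of these data known. Counts were summed per library and cluster (at least 10 cells) and given as CPM of that sum. Sums were tested with edgeR 4.0.16 (TMM, filterByExpr, quasi-likelihood test, R 4.3.3), with library as a block between clusters and with no block between genotypes, and Benjamini-Hochberg adjusted over all genes. Adjusted p under 0.1 was called. The SE is the log2 fold change divided by the square root of F. Neighbouring clusters in the order of levels were compared on log2(CPM + 1) by an exact sign-flip permutation test over 8 libraries, adjusted over 42 tests, and genotypes by an exact permutation test, both two-sided. The study states that several litters were used where genotypes were compared and calls the samples independent. It does not say which litters went into which library, so p-values measure the spread between these pools.

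Shares of cells used cells thinned to 5000 UMIs. Doublets were marked with Scrublet (scanpy 1.11.5) and kept. Named genes outside the list were the 3 largest differences per direction of each vEC cluster against the other vEC clusters, among called genes with the direction in every WT library and a mean of at least 5 on the log2 CPM scale; 1 gene that met this rule is not reported here. In counts simulated from these sums, 100% of 200 changed genes were found and 5.66% of calls were false for vEC_4 against aEC (10649 genes), and 100% and 6.10% for Mff_Cre against WT in aEC (9602 genes). The planted changes were estimated at a median size of 1.50 and 1.51 on the log2 scale, in genes above a set level only. All genes were given the same spread, with no library effect. Smaller changes and lower genes were not simulated, so these values give no power for the Nr2f2 differences between genotypes. Alternatives were DESeq2 1.42.0, RLE scaling, no filter, Bonferroni adjustment, 0.05 as threshold, 20 cells per sum, thinned cells, no library block, all or Mff_Cre libraries only, a term for depth, WT 5 standing alone for WT, a replicate block and leaving out each library; an unblocked fit of libraries 1 to 3 was added after seeing the data. Intervals of counting error cover counting error only.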

Additional observations from a re-analysis of the deposited data

Results flagged for a closer look

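In 48 groups of 5 WT libraries, 6 held a library far from the others, with a gap to its nearest neighbour of over 0.71 of the range (Dixon's critical value for 5 samples). For values with a normal spread chance marks about 1 in 20 such groups. That rate does not hold for pre-HE, where many values were 0. In pre-HE, WT 5 had 51.5 CPM of Nr2f2 where the median of the other libraries was 0.791, 6.44 CPM of Nr2f1, 57.9 CPM of Aplnr and 57.9 CPM of Nrp2, where the other libraries had medians of 0. These 4 values come from the same 2 cells. WT 1 had 25.5 CPM of Stab2 in vEC_4, where the median of the others was 14.8 CPM. WT 3, the library with fewest cells, had 104 CPM of Nrp2 in aEC, where the median of the others was 73.5 CPM.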

How the results depend on the processing

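Of the alternatives to the log2 fold changes between clusters, 674 kept direction and call, 49 lost the call, 10 gained one and 4 reversed, and with a library left out 338 kept it, 9 lost it and 3 reversed. The number of the 7 venous genes called moved from 5 to 3 in pre-HE with Bonferroni adjustment and with Mff_Cre libraries only. Against aEC it moved from 6 in vEC_1 to 2 with Bonferroni adjustment and to 3 with DESeq2 and with no library block, and from 6 in vEC_2 to 3 with Bonferroni adjustment. Against the other vEC clusters it moved from 5 to 3 with DESeq2 in vEC_2 and vEC_3 and with no library block in vEC_3. Signs turned for 4 values between clusters, none of them called: Emcn in pre-HE was -0.062 with Mff_Cre libraries only and -0.11 to 0.16 with a library left out, Emcn in vEC_1 0.012 with Mff_Cre libraries only, Stab2 in EHT -1.33 in thinned cells and -0.51 to 1.08 with a library left out, and Aplnr in vEC_2 against the other vEC -0.011 with DESeq2 and -0.032 to 0.041 with a library left out. The cause was not tested.

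Between genotypes, Nr2f2 in aEC was -0.091 with depth as a covariate, in vEC_4 -0.019 with WT 5 as the only WT, and its difference between pooled vEC and aEC -0.35 to 0.036 with a library left out. With a library left out, 0 to 1 of the 7 genes was called in vEC_1 and in vEC_2, the 1 being Nr2f2 without WT 5. Genes called over the 10 cluster comparisons numbered 4125 to 8083, and 901 to 4514 with Bonferroni adjustment, 1727 to 4645 in thinned cells, 2396 to 5790 with Mff_Cre libraries only and 1487 to 7349 with no library block. Genotype fits called 0 to 18 genes, 9 to 87 with DESeq2, 65 to 297 with no filter and 79 to 1002 without WT 5.

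The labels number the libraries of both genotypes, but nothing says that a number is shared by a litter or day. Deviations of same-numbered libraries correlated at -0.0066, 0.223 and 0.143 in aEC and at -0.099, 0.231 and 0.256 in pooled vEC. Differently numbered libraries gave -0.184 to 0.027 in aEC and -0.306 to 0.162 in pooled vEC. Numbers 2 and 3 thus lay above every unlike pair and number 1 did not. The numbers were not taken as pairs because the labels do not pair them, and the block is given as an alternative. With the replicate block over libraries 1 to 3, 1 of 7 genes was called in vEC_1 (Nr2f2, log2 fold change 0.39, edgeR adjusted p = 0.0304) and 1 in vEC_2 (Nr2f2, 0.26, adjusted p = 0.0939), and 137 to 1464 genes per cluster. The same libraries without the block gave 103 to 674 genes and Nr2f2 adjusted p = 0.102 and 0.201.

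Of 42 neighbouring pairs 0 differed in the 5 WT libraries alone, where the smallest p is 0.0625, against 29 over 8 libraries. The share of WT aEC cells with a Nr2f2 UMI was 35.6% with no thinning and 2.26% with at least 2 UMIs required, against 13.3%. Shares that differed between genotypes numbered 6 with no thinning, 0 at 3000 UMIs and 0 with at least 2 UMIs, against 1. Depth limits Stab2 and Nr2f1 in aEC, and Nr2f2, Nr2f1, Nrp2, Aplnr and Stab2 in pre-HE, where the Mff_Cre libraries held 15 to 33 cells each.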
